A study of Rattus norvegicus with 11 samples.

Results

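The subject is a division among the livers of rats given the high dose of mequindox. Arrays of high-dosed animals 8, 10 and 11 (3 arrays) were set against arrays of high-dosed animals 2, 3, 4, 5 and 6 (5 arrays), which together are all 8 high-dosed arrays of the 11 in the series. The remaining 3 arrays, of control animals 1, 2 and 9, served as the reference for untreated liver. All animals were Wistar rats and the tissue was liver; each array held the RNA of 1 animal. Control animals were labelled only as control and treated animals as high-dosed mequindox, and neither the dose in mass nor its route or duration is stated in the labels. The labelled age was week 9 for every animal except high-dosed animal 8, labelled week 10. No sex was given in the labels. Per the series' design text, the control and high-dosed groups had been picked for arrays from principal components of liver extracts and from clinical chemistry.

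The labels do not name the subgroups: the 3 and the 5 animals were chosen by the measured signal of these same arrays. Every difference in gene signal between the subgroups below is therefore a description without a test, and tests between them were run only on array quality measures from control probe sets. Mequindox is a synthetic quinoxaline di-N-oxide antibacterial used in farm animals. The liver is the main organ that takes up and reduces such drugs, and its hepatocytes make plasma proteins, bile acids and most detoxifying enzymes. Liver expression also varies between animals with feeding, time of day, sex and the neighbouring tissue taken along at dissection.

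Signal is given throughout as log2(intensity + 55.26), called log2 signal, where 55.26 is the 20th percentile of the deposited intensities. A gene was represented by its brightest probe set, and 10714 genes lay above a signal filter set at the 40th percentile of mean log2 signal (7.40). For each gene the subgroup difference is the mean log2 signal of animals 8, 10 and 11 minus that of animals 2 to 6, so a positive value is higher in animals 8, 10 and 11.

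In a principal component analysis of all 11 arrays the subgroups stood apart from each other and from the controls. Component 1 held 31.2% of the variance, with controls from -19.1 to -9.80, animals 2 to 6 from -3.36 to 1.57 and animals 8, 10 and 11 from 10.8 to 18.7. Animals 2 to 6 thus lay between the controls and the other 3 high-dosed animals. Component 2 held 22.0% of the variance and placed animals 2 to 6 from -16.9 to -6.00, below both the controls (8.10 to 10.9) and animals 8, 10 and 11 (5.13 to 8.53). After quantile normalization, which gives every array the same distribution of values, component 1 kept the same order (controls -20.4 to -11.3, animals 2 to 6 from 0.14 to 3.14, animals 8, 10 and 11 from 8.75 to 16.2).

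**Figure D1:**
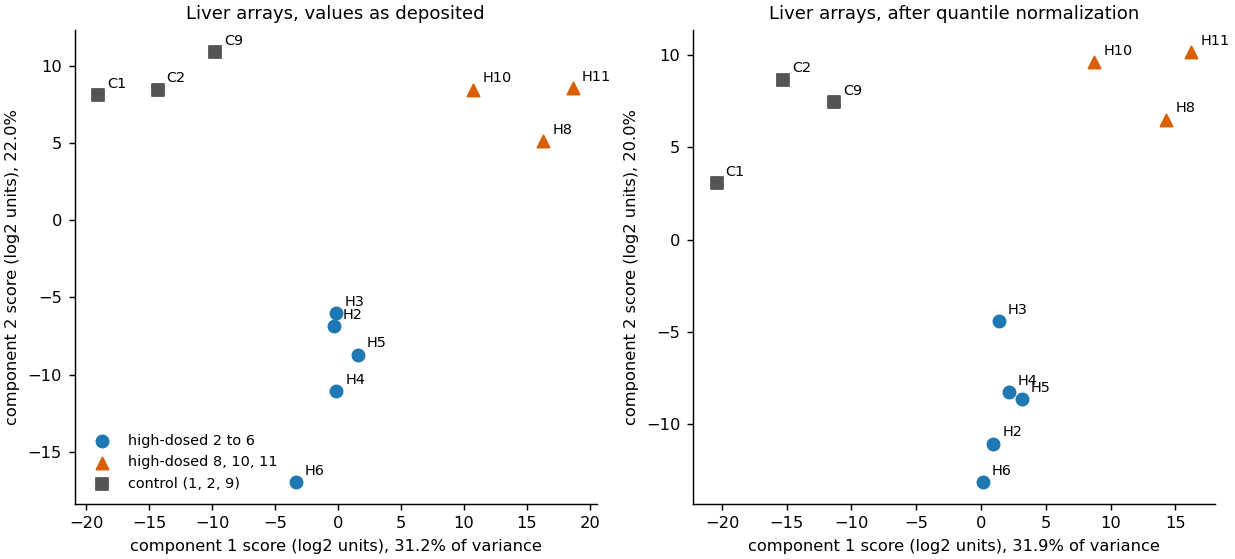
Scores of the 11 liver arrays on principal components 1 and 2 of log2 signal, as deposited (left) and after quantile normalization (right); squares are controls, circles high-dosed animals 2 to 6 and triangles high-dosed animals 8, 10 and 11. In both panels the 3 triangles lie at the far end of component 1 from the controls, and the 5 circles lie between them and apart on component 2.

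Over all genes, animals 2 to 6 were nearer to untreated liver. The root mean square difference in log2 signal from the controls, averaged over the 3 controls, was 0.31, 0.28, 0.30, 0.30 and 0.33 for animals 2, 3, 4, 5 and 6. It was 0.35 for animal 8, 0.31 for animal 10 and 0.37 for animal 11. Animals 8 and 11 were thus farther from the controls than any of animals 2 to 6, while animal 10 lay within their range. Pairs within animals 2 to 6 differed by a median of 0.22 (10 pairs), pairs within animals 8, 10 and 11 by 0.23 (3 pairs), and pairs across the subgroups by 0.29 (15 pairs, 0.24 to 0.37). The 2 kinds of pair overlapped, since the widest pair within animals 2 to 6 differed by 0.29. Pairs of controls differed by a median of 0.25 (3 pairs).

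Array quality was compared on Affymetrix control probe sets, which were not among the genes. Of 11 measures, 1 had an unadjusted p below 0.05 and 0 passed Benjamini-Hochberg adjustment (exact two-sided permutation tests over 56 arrangements of 3 and 5 arrays, lowest adjusted p = 0.393). That measure was the 3' minus 5' log2 signal of actin, a gauge of RNA length, which was 1.05 ± 0.06 in animals 8, 10 and 11 (SD, n = 3) and 1.23 ± 0.12 in animals 2 to 6 (SD, n = 5; exact permutation p = 0.0357, the smallest this design allows). In all 3 of the first it was below all 5 of the second, and the controls ranged from 1.09 to 1.20. With 11 measures adjusted, a single one could not pass at that p. The median deposited intensity was 149, 153 and 149 on the arrays of animals 8, 10 and 11, against 159 to 186 in animals 2 to 6 and 162 to 176 in controls. Its part in the differences below was not tested.

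Differences of at least 2-fold were few. Of the 10714 genes, 6 were at least 2-fold higher in animals 8, 10 and 11 with no overlap between the 3 and the 5 arrays (0.056% of genes), and 1 was lower by the same rule (0.00933%). After quantile normalization the counts were 7 (0.0653%) and 1 (0.00933%), and all 7 genes of the deposited values were among them. These genes are called split genes. Of these, 5 of the higher genes carried a name: Rgs16, RT1-N2, Fhl1, Cdkn1a and Fabp4, and the lower one was Xist. Since the subgroups were drawn from these signals, the counts describe them and support nothing. The member nearest to the 2-fold limit was Fabp4 (1.00), and the named genes without overlap just short of it were Etv3 (0.72) on the higher side and Aak1 (-0.80) on the lower.

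Rgs16, which encodes a regulator that shortens G protein signalling, had the largest higher difference. Its log2 signal was 11.82, 11.88 and 11.75 in controls 1, 2 and 9, and 11.83, 11.88 and 12.27 in animals 8, 10 and 11. In animals 2, 3, 4, 5 and 6 it was 10.48, 10.32, 11.81, 9.05 and 10.99. Animals 8, 10 and 11 therefore stood at or above the control level, and animals 2 to 6 spread widely below it, with animal 4 just under animal 8. The subgroup difference was 1.46 (2.76-fold), with means of 11.99 ± 0.24 (SD, n = 3) and 10.53 ± 1.01 (SD, n = 5). The comparison of all 8 high-dosed animals with controls did not pass for Rgs16 (log2 fold change -0.74 ± 0.54, SE, limma adjusted p = 0.433).

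Cdkn1a encodes p21, an inhibitor of cyclin-dependent kinases that p53 and glucocorticoids induce. Its log2 signal was 10.52, 10.31 and 10.82 in controls, 8.48, 9.22, 8.37, 8.44 and 8.82 in animals 2 to 6, and 9.48, 9.87 and 9.77 in animals 8, 10 and 11. The 3 groups did not overlap, and animals 8, 10 and 11 lay between controls and animals 2 to 6. The subgroup difference was 1.04 (2.05-fold), and it fell just short of 2-fold without animal 2 (0.99), 4 (0.97), 5 (0.98) or 10 (0.96). A second Cdkn1a probe set showed the same order (controls 8.42 to 8.83, animals 8, 10 and 11 from 7.62 to 8.35, animals 2 to 6 from 7.03 to 7.26). Cdkn1a fell in the dose comparison (log2 fold change -1.49 ± 0.32, SE, limma adjusted p = 0.0122), a call lost without control 1 (adjusted p = 0.0588) or control 9 (0.0513). Set only against controls of similar animal number, the difference was -1.75 for animals 2 to 6 against controls 1 and 2, and -1.11 for animals 8, 10 and 11 against control 9 alone.

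**Figure D2:**
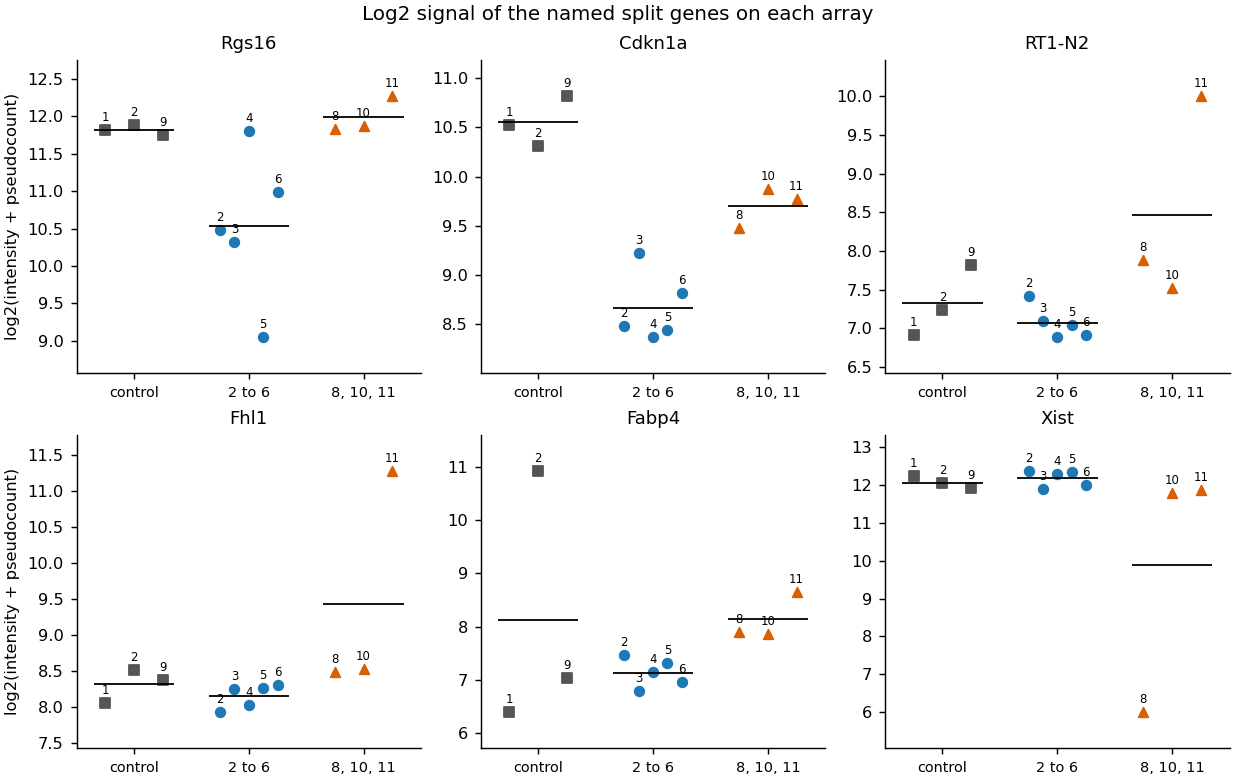
Log2 signal, log2(intensity + 55.26), of the 6 named split genes on each array, with animal numbers beside the points and horizontal lines at group means; the panels have different vertical ranges. Rgs16 and Cdkn1a separate the subgroups through all 3 animals, RT1-N2 and Fhl1 mostly through animal 11 (10.00 and 11.27) and Xist through animal 8 (6.00).

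In Fhl1, RT1-N2 and Xist, 1 animal carried most of the difference. Fhl1, a LIM-domain protein abundant in striated muscle, had a log2 signal of 8.49 and 8.54 in animals 8 and 10 but 11.27 in animal 11. Its signal was 7.93 to 8.31 in animals 2 to 6 and 8.06 to 8.51 in controls, so animals 8 and 10 lay close to both. The difference of 1.27 became 0.35 without animal 11, and another Fhl1 probe set above the filter gave 0.05, with overlap. RT1-N2, a class Ib gene of the rat major histocompatibility complex, stood at 7.88, 7.52 and 10.00 in animals 8, 10 and 11, at 6.89 to 7.41 in animals 2 to 6 and at 6.91 to 7.82 in controls. Its difference of 1.40 became 0.63 without animal 11, and this family holds near-identical genes that a probe set may not separate. Ada, which deaminates adenosine, was split only after quantile normalization (1.07). It stood at 10.92 in animal 11 against 7.80 to 8.31 on all other arrays.

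Markers of skeletal muscle were high on the array of animal 11. Of the 5 markers, 4 were raised there: Acta1, skeletal muscle actin, was at 11.54 against 6.47 to 6.73 on the other 10 arrays. Tnnt3, a fast troponin, was at 9.80 against 6.82 to 7.16, and Mb, the oxygen store myoglobin, at 9.76 against 6.32 to 6.53. A dimmer Tnnt3 probe set was at 6.14 in animal 11, within the range of the other arrays (6.06 to 6.29). Ckm, the muscle creatine kinase, was at 9.61 against 7.49 to 8.19, while the fast myosin Myh4 was at 6.47, within the range of the others (6.37 to 6.69). The summed intensity of the 5 markers was 365 to 411 in controls, 371 to 430 in animals 2 to 6, 288 in animal 8, 317 in animal 10 and 5329 in animal 11. Myl3 (10.18 against 7.28 to 7.66) and Cox6a2 (8.23 against 6.35 to 6.55), muscle genes chosen after their values were seen, were high in the same animal. In these bulk samples more cells of a type and more RNA per cell cannot be told apart. The part of muscle RNA in the Fhl1, RT1-N2 and Ada values was not tested. Without animal 11, 3 genes were at least 2-fold higher without overlap (Rgs16, Cdkn1a and a gene with a placeholder symbol), and 3 were lower (Xist, Aacs and Kcnj15). The last 2 were named after their values were seen.

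Fabp4, the fatty acid-binding protein of adipocytes, had a log2 signal of 7.90, 7.87 and 8.66 in animals 8, 10 and 11 and of 7.48, 6.79, 7.14, 7.31 and 6.97 in animals 2 to 6. The controls spanned both, at 6.40, 10.92 and 7.03. Control 2 thus exceeded every high-dosed array. Adipoq, the adipocyte hormone adiponectin, was also highest in control 2, at 8.27 against 6.32 to 7.08 elsewhere. For Plin1, a lipid droplet protein, the probe sets disagreed: one was at 8.61 in control 2 against 6.38 to 6.78 elsewhere, and the brighter one at 7.30 against 6.92 to 7.29. The summed intensity of the 5 adipocyte markers was 3280 in control 2 and 766 and 1010 in controls 1 and 9. It was 805 to 979 in animals 2 to 6 and 951 to 1501 in animals 8, 10 and 11, with animal 11 highest. Fabp4 fell short of 2-fold without animal 11 (0.75), 3 (0.92) or 6 (0.96), and the gene with a placeholder symbol without animal 8 (0.99). The part of fat tissue in its difference was not tested.

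Xist, the RNA that coats and silences an X chromosome and is made where more than 1 X is present, was the split gene on the lower side. Its log2 signal was 12.23, 12.04 and 11.92 in controls and 12.37, 11.89, 12.30, 12.35 and 11.99 in animals 2 to 6. In animals 8, 10 and 11 it was 6.00, 11.80 and 11.88. Animal 8 alone was low, and animals 10 and 11 lay just under the lowest of animals 2 to 6. All 4 Xist probe sets were low in animal 8, with 5.95 to 6.68 there and 10.96 to 12.37 on the other arrays. Only the brightest gave no overlap between the subgroups. On the others animal 11 (11.86, 11.49 and 11.22) lay above animal 3 (11.76, 11.24 and 10.96). The difference of -2.28 became -0.34 without animal 8. Of the Y-linked genes on the array, Eif2s3y was at 5.81 to 5.87 on all 11 arrays, under the filter. The brightest Uty probe set was at 9.46 in animal 8 and at 9.91 to 10.35 on the other arrays. Sry, the testis-determining gene, was at 7.28 to 7.40 in animals 8, 10 and 11, below all of animals 2 to 6 (highest 7.82, difference -0.36). It was also below the controls (7.45 to 7.61). Its mean of 7.55 lay in the dimmest decile of genes, where 42.9% were lower without overlap as deposited. After quantile normalization its difference was -0.21. The probe sets named for Y-linked genes thus did not share 1 level. Cyp2c12, a cytochrome P450 known as female-specific in adult rat liver, was at 14.10 to 14.24 on all 11 arrays, animal 8 included. Cyp2c11, known as its male-specific relative, was at 7.88 in animal 8 and at 7.89 to 8.65 on the others. Animal 8, the only one labelled week 10, thus lay far below the rest in Xist. Animal 8 was also at the lower edge of the range in these 2 P450 genes. That range was narrow for Cyp2c12 and wider for Cyp2c11, where animal 11 (7.89) was almost as low. Without animal 8, 10 genes were split as higher and 1 as lower (Ptgis, named after its values were seen).

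Beyond these genes the subgroups differed by many small amounts. Without a minimum fold, 509 genes were higher in animals 8, 10 and 11 with no overlap (4.75% of genes) and 2330 were lower (21.7%). The median difference was 0.21 over the 509 and -0.35 over the 2330. Only 14 of all genes were higher by at least 1.5-fold without overlap, and 135 were lower. The typical SD of a gene within a subgroup was 0.08 for animals 8, 10 and 11 and 0.11 for animals 2 to 6 (medians over genes).

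The excess of lower genes depended on signal and on scaling. In the dimmest decile of genes, with log2 signal from 7.40 to 7.76, the median difference was -0.18 and 42.9% of genes were lower without overlap. In the fifth decile these values were -0.03 and 22.5%, and in the brightest decile (11.80 to 15.05) they were -0.00 and 4.66%. The share of higher genes stayed between 3.36% and 5.88% in every decile. After quantile normalization 1127 genes were higher without overlap (10.5%) and 1714 lower (16%), and the median difference of the dimmest decile was -0.03. Lower genes made up 82.1% of the genes without overlap as deposited, 60.3% after quantile normalization and 33.2% after centring each array on its median, which moved the median difference of all genes from -0.03 to 0.12. The direction of a small difference in a dim gene is thus relative to the scaling. In the same direction under both the deposited and the quantile-normalized values were 474 higher and 1679 lower genes.

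**Figure D3:**
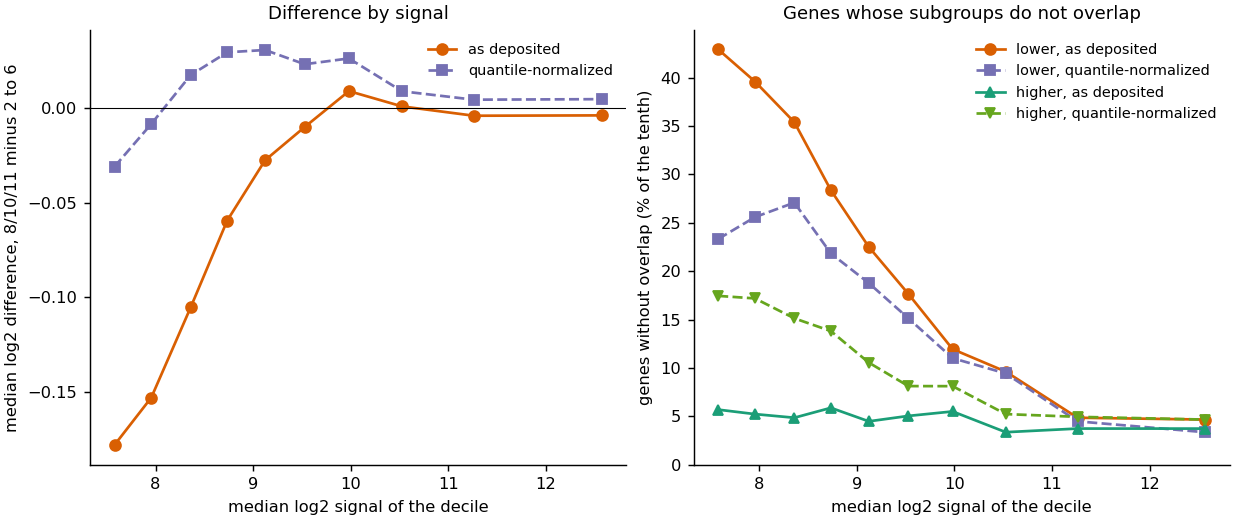
Genes were ordered by mean log2 signal and cut into 10 equal groups; the left panel plots the median difference (animals 8, 10 and 11 minus animals 2 to 6, log2) and the right panel the percentage of genes without overlap between the subgroups, against the median log2 signal of each group. As deposited, the difference goes from -0.18 in the dimmest group to about 0 in the brightest and the lower share from 42.9% to 4.66%; quantile normalization flattens the first.

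The genes named in the next paragraphs were the largest without overlap in both scalings, picked after their values were seen. Etv3, an ETS-family transcriptional repressor, was higher by 0.72, with log2 signal of 10.27, 10.76 and 10.81 in animals 8, 10 and 11 and 9.38 to 10.22 in animals 2 to 6. Controls spanned 9.22 to 10.54. Dnase2b, a lysosomal nuclease, was higher by 0.72 (9.13, 9.56 and 8.66 against 8.12 to 8.60) and lay above the controls (7.90 to 8.37) as well. Anxa1, a calcium-dependent membrane protein that damps inflammation, was higher by 0.69 (10.13, 10.02 and 10.41 against 9.04 to 9.65). S100a6, a small calcium-binding protein, was higher by 0.69 too (9.05, 9.06 and 9.75 against 8.19 to 8.79). In each of these 4 genes all of animals 8, 10 and 11 exceeded every one of animals 2 to 6, and for Anxa1 and S100a6 they exceeded the controls too. Of the 12 named on this side, Slc25a4 (0.61), Emp1 (0.61) and Cav1 (0.54) were highest in animal 11, at 10.33, 9.65 and 9.18. Mbnl3 (0.64), Tagln (0.57), Adh7 (0.58), Casp12 (0.58) and Rps4y2 (0.68) completed the group.

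Among bright genes, with mean log2 signal of at least 11, the differences were smaller and kept their size under quantile normalization. Dsc2, a desmosomal cadherin, was at 11.89, 11.77 and 11.72 in animals 8, 10 and 11 and at 11.24 to 11.53 in animals 2 to 6, a difference of 0.44 (0.45 after quantile normalization). The controls stood lower still, at 11.11, 10.79 and 9.90. Dsc2 rose in the dose comparison (0.92 ± 0.21, SE, limma adjusted p = 0.0183), a call lost without control 9 (0.57, adjusted p = 0.0606). Vim, the intermediate filament of mesenchymal cells, was higher by 0.36 and Igfbp7, a secreted binding protein, by 0.33. Agxt, the peroxisomal enzyme that removes glyoxylate, was higher by 0.37 (12.09, 11.99 and 11.84 against 11.45 to 11.83), with controls from 11.54 to 12.07 across the same range.

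On the lower side of the bright genes stood several enzymes and transporters. Slc6a9, a glycine transporter, was at 10.95, 10.96 and 10.93 in animals 8, 10 and 11, against 11.36 to 11.51 in animals 2 to 6 and 11.17 to 11.31 in controls. Its difference was -0.49 (-0.48 after quantile normalization), with SDs of 0.02 and 0.07 within the subgroups. Ces1d, a carboxylesterase that splits ester drugs and lipids, was lower by 0.40, with 11.99, 11.94 and 12.20 against 12.27 to 12.56 and controls of 12.31 to 12.95. Gch1, which starts tetrahydrobiopterin synthesis, differed by -0.38, Ptprs, a receptor phosphatase, by -0.37, and Slc16a12, a creatine transporter, by -0.36. Acaa2, the last enzyme of mitochondrial fatty acid oxidation, differed by -0.30. For Slc6a9 and Ces1d animals 8, 10 and 11 lay below the controls too. For Gch1 they lay from 11.12 to 11.57, within reach of the controls (11.06 to 11.35), while animals 2 to 6 (11.65 to 11.94) lay above both.

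The largest lower differences among dimmer genes were of -0.72 to -0.80 and became smaller after quantile normalization. Aak1, a kinase of endocytosis, was at 7.53, 7.46 and 7.21 against 8.06 to 8.30 in animals 2 to 6 and 8.04 to 8.31 in controls, and its difference of -0.80 shrank to -0.65 after quantile normalization. Glis2, a zinc-finger factor, differed by -0.78 (-0.69), and Ranbp1, which assists nuclear transport, by -0.73 (-0.61). Dtl, part of a ubiquitin ligase of DNA replication, differed by -0.72 (-0.57). For these 4 genes animals 8, 10 and 11 also lay below all 3 controls, as far as 7.92 to 8.32 for Ranbp1 against 8.93 to 9.05.

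Gene lists for liver pathways and cell types were described by their counts, beside the shares over all genes of 4.75% higher and 21.7% lower as deposited and, after median centring, 25.4% higher and 12.6% lower. As deposited, the lower share over all genes went from 42.9% in the dimmest decile to 4.66% in the brightest. The 21.7% is therefore not matched to the signal of a list. In the dose comparison of all 8 high-dosed animals with controls (limma, adjusted p below 0.05), 7.91% of all genes rose and 2.74% fell, and list counts of that comparison are to be read against these shares. Without control 1 the comparison called 246 rises and 79 falls in place of 847 and 294. Immediate early genes, which respond within minutes to growth and stress signals, had the largest share on the lower side among lists with at least 10 measured members. Of 23 measured, 9 were lower and 0 higher without overlap (39.1%), with a median difference of -0.23 against -0.03 over all genes. After quantile normalization 7 were lower and the median was -0.14. After median centring it was -0.09, with 4 lower and 2 higher. The members had a median log2 signal of 9.28, in the fifth decile, where 22.5% of all genes were lower as deposited. That decile does not match each member. Nr4a3, with a mean of 8.02, lay in the second decile, where 39.6% were lower, and Gadd45b, with 8.95, in the fifth. The orphan nuclear receptors Nr4a3 (7.42 to 7.77 against 8.06 to 8.42) and Nr4a1 (7.43, 7.55 and 7.64 against 7.86 to 8.21) differed by -0.63 and -0.51. Gadd45b, a stress sensor, was at 8.66, 8.63 and 8.77 against 8.87 to 9.59, with controls from 8.54 to 9.00 beside animals 8, 10 and 11. The RNA-decay factor Zfp36 differed by -0.39 and the AP-1 subunit Junb by -0.31. With the dose 1 of the 23 rose and 1 fell, and 0 of either without control 1.

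Cell cycle genes went both ways. Of 24 measured, 8 were lower without overlap (33.3%) and 2 higher (8.33%). The lower share was near that of genes as dim: the members' median log2 signal was 8.47, in the third decile, where 35.4% were lower. Tk1, the thymidine kinase of S phase, was at 9.25, 9.24 and 9.27 against 9.77 to 10.03 in animals 2 to 6 and 9.64 to 9.78 in controls. Nusap1, which binds spindle microtubules, was at 8.53, 8.57 and 8.19 against 8.89 to 9.30. Ccnb2, a mitotic cyclin, was on the contrary at 8.38, 8.47 and 8.37 against 7.68 to 8.36. The list median was -0.11 as deposited and 0.04 after both quantile normalization and median centring, so the list as a whole had no direction that held under all scalings. Tk1 and Nusap1 stayed lower under quantile normalization (-0.59 and -0.52) and Ccnb2 higher (0.49). With the dose 4 of the 24 rose and 0 fell, and 1 rose without control 1.

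Cytosolic ribosomal proteins and matrix genes had the largest shares on the higher side among lists of that size. Of 39 ribosomal protein genes 9 were higher (23.1%) and 1 lower (2.56%), under the deposited and the quantile-normalized values. The differences were small: Rpl12, a large-subunit protein, was at 13.28, 13.19 and 13.29 against 13.04 to 13.15, a difference of 0.15, and the list median was 0.04 (0.19 after median centring, with 30 of 39 higher beside 25.4% of all genes). The lower one, Rps13, was read from a dim probe set (7.47 to 7.80) and differed by -0.24. Of 27 extracellular matrix and stellate cell genes 4 were higher and 1 lower, with a median of 0.11 (0.15 after quantile normalization, 0.26 after median centring). Besides Vim these were the collagen Col5a2 (0.41), the smooth muscle protein Tagln (0.57) and the galectin Lgals1 (0.49), while the PDGF receptor Pdgfrb differed by -0.51. Dcn and Lum, proteoglycans of connective tissue, were high in animal 11 (10.50 and 10.08) and overlapped otherwise. Averaged over the 27 genes, log2 signal relative to each gene's mean was -0.02, 0.08 and 0.31 in animals 8, 10 and 11. In animals 2 to 6 it was -0.07 to 0.03, so animal 8 lay within their range and animal 11 was highest. The summed intensity of the 8 stellate cell markers was 11506 to 13252 in animals 8, 10 and 11, with animal 11 highest. It was 9711 to 11671 in animals 2 to 6 and 9854 to 10463 in controls, so the subgroups overlapped. Of these markers, Des was at 8.57 in animal 11 against 7.36 to 7.77 on the other arrays. Acta2, at 7.26 there, lay within the others (7.04 to 7.62).

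**Figure D4:**
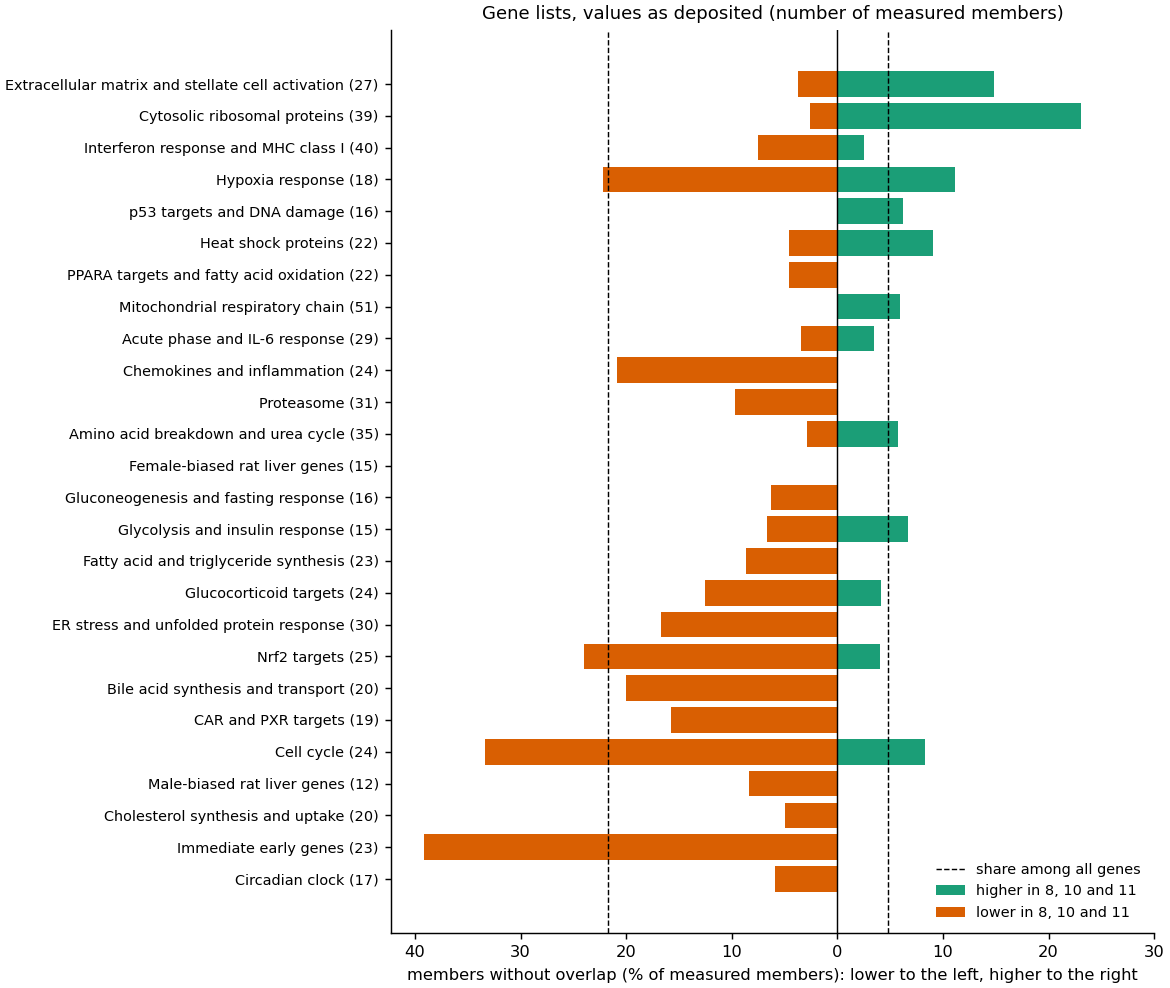
Share of the measured members of each gene list that were higher (right) or lower (left) in animals 8, 10 and 11 with no overlap, in percent of measured members, values as deposited, ordered by the list's median difference; dashed lines are the shares over all genes, 4.75% and 21.7%. Immediate early and cell cycle genes reach 39.1% and 33.3% on the lower side, and ribosomal proteins 23.1% on the higher side. The lower share over all genes varies with signal. Cell cycle genes have a median log2 signal of 8.47, in a decile where 35.4% of all genes are lower.

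Lists of drug and bile acid handling held bright genes that were lower. Of 20 measured genes of bile acid synthesis and transport 4 were lower and 0 higher, as deposited and after quantile normalization (20%, beside 21.7% of all genes as deposited). After median centring 0 were lower and 1 higher. The list's median log2 signal was 12.57, in the brightest decile. There 4.66% of all genes were lower as deposited and 3.36% after quantile normalization. The 4 lower genes were the canalicular exporter Abcc2, the uptake carriers Slco1a4 and Slco1b2 and the racemase Amacr, with differences of -0.22, -0.24, -0.26 and -0.27. Abcc2 was at 12.82, 12.66 and 12.75 in animals 8, 10 and 11, at 12.88 to 13.06 in animals 2 to 6 and at 12.39 to 12.42 in controls. It rose in the dose comparison (0.48, limma adjusted p = 0.00244), and animals 8, 10 and 11 lay between the controls and the others. Of 25 targets of Nrf2, the factor that answers oxidative stress, 6 were lower and 1 higher: Txnrd1, Gstm3, Ephx1, Akr1b8, Cbr1 and Mt1 differed by -0.14 to -0.53 and Cbr3 by 0.19. After median centring 1 of the 25 was lower and 4 were higher, both below the shares over all genes in that scaling. The median log2 signal of the Nrf2 list was 11.10, in the ninth decile, where 4.86% of all genes were lower as deposited. Gstm3 was dim, with a mean of 7.49. Ephx1, the microsomal epoxide hydrolase, was at 13.10, 13.23 and 13.27 against 13.34 to 13.49, within the controls (12.47 to 13.41). The Nrf2 target Nqo1, a quinone reductase, overlapped between the subgroups (0.15). With the dose 2 of the 25 Nrf2 targets rose and 1 fell, beside 7.91% and 2.74% of all genes, and without control 1 the counts were 6 and 0. Of the 20 bile acid genes 6 rose and 1 fell, and 5 and 1 without control 1; without control 2 they were 2 and 1.

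Over all genes the shares without overlap were 4.75% higher and 21.7% lower as deposited, and 25.4% and 12.6% after median centring. The counts below stand beside these shares, which are not matched to the signal of a list. Of 18 hypoxia genes 2 were higher (11.1%, Egln1 and Kdm3a) and 4 lower (22.2%, Slc2a1, Pfkfb3, Ndrg1 and Car9). Egln1, the oxygen sensor that marks HIF for decay, differed by 0.31 and Car9, a carbonic anhydrase, by -0.54. Of 22 heat shock genes 2 were higher (9.09%; Bag3 and Hsf1) and 1 lower (Hspb8), with Bag3, a chaperone partner, at 0.30. Of 30 genes of endoplasmic reticulum stress 5 were lower (16.7%) and 0 higher as deposited. The 5 were Xbp1, Atf6, Syvn1, Ppp1r15a and Vldlr. After median centring 1 was lower and 2 were higher. Ppp1r15a, which restarts translation after stress, was at 8.91, 8.86 and 8.87 against 9.23 to 9.56. Of 24 chemokine and inflammation genes 5 were lower as deposited (20.8%, near the 21.7% of all genes). The 5 were Ccl20, Cxcl16, Tnf, Tnfaip3 and Nos2. After median centring 5 were lower as well, beside 12.6% of all genes. Tnfaip3, a brake on NF-kB, differed by -0.59 and Nos2 by -0.50. Of 31 proteasome genes 3 were lower and 0 higher without overlap (0 and 11 after median centring), whereas 14 of the 31 fell with the dose, beside 2.74% of all genes, and the count was 3 without control 1 and 4 without control 2. Of 16 p53 targets 1, Cdkn1a, was higher (6.25%) and 0 lower. After median centring 4 were higher and 0 lower, beside 25.4% and 12.6% of all genes. Of 9 genes of MHC class II presentation 0 were without overlap as deposited and 1, Ciita, was higher after quantile normalization (0.39). Of the 9, 6 rose with the dose beside 7.91% of all genes, but 0 did so without control 1 and 3 without control 2. Of 51 respiratory chain genes 3 were higher (Ndufa5, Cox7b and Atp5pf) and 0 lower, and 27 were higher after median centring, beside 25.4% of all genes.

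Markers of the liver's own cells showed that all arrays were of liver. The hepatocyte markers summed to 101218 to 105724 in controls, 105766 to 108595 in animals 2 to 6 and 103196 to 108728 in animals 8, 10 and 11. Alb, the serum albumin gene, was at 15.03 to 15.07 on every array. Its subgroups did not overlap (difference -0.02, 0.13 after median centring), and the same turn of sign was seen for Asgr1, the asialoglycoprotein receptor (-0.10, 0.05 after median centring). Kupffer cell markers summed to 19850 to 27552 in animals 8, 10 and 11 and 20610 to 25687 in animals 2 to 6. For endothelial markers the ranges were 10225 to 11005 and 10499 to 11383. Of 7 Kupffer cell and 5 endothelial markers 0 were without overlap between the subgroups.

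Clock genes varied widely inside both subgroups, and their list had the lowest median difference of the lists with at least 10 measured members. The median over the 17 measured was -0.24 against -0.03 over all genes (-0.19 after quantile normalization and -0.09 after median centring). Bmal1, a core transcriptional activator of the circadian clock, was at 9.35, 9.25 and 9.30 in controls, at 6.75, 8.07, 7.28, 7.08 and 6.81 in animals 2 to 6 and at 8.07, 8.97 and 7.76 in animals 8, 10 and 11. Animal 3 was as high as animal 8, and animal 10 was closest to the controls. The subgroup difference was 1.07 with overlap. Dbp, a transcription factor whose promoter Bmal1 activates, was at 7.45 to 7.58 in controls, at 11.31, 9.64, 10.45, 11.18 and 11.44 in animals 2 to 6 and at 10.06, 8.05 and 10.49 in animals 8, 10 and 11, a difference of -1.27 with overlap. Again animals 3, 8 and 10 were nearest to the controls. Without animal 3, Bmal1 (1.29), its partner Npas2 (1.12), the deubiquitinase Usp2 (-1.17), the rhythmic gene Noct (-1.10) and the p53 target Rprm (1.61) were split; the last 4 were named after their values were seen. Of the 17 measured clock genes 1 was lower without overlap (Cry2, -0.39) and 0 higher. With the dose 5 rose and 5 fell, beside 7.91% and 2.74% of all genes, and 3 rose and 1 fell without control 1.

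Bmal1 fell in the dose comparison (-1.70 ± 0.38, SE, limma adjusted p = 0.0167), a call lost without control 1 (adjusted p = 0.0812), and Dbp rose (2.81 ± 0.56, limma adjusted p = 0.00861). Against controls 1 and 2 alone, animals 2 to 6 differed by -2.10 in Bmal1 and 3.26 in Dbp. Against control 9 alone, animals 8, 10 and 11 differed by -1.03 and 2.08. Both subgroups thus differed from the controls in the same direction. In some other genes with a large dose change, but not all, animal 10 stood apart on the control side: Nr1d2, which represses Bmal1, was at 10.59 there against 11.10 to 11.53 in the other 7 high-dosed animals. Hsd17b2, which oxidises sex steroids, was at 12.37 against 13.33 to 13.97, and Pbsn was at 6.74, under the filter value, against 8.12 to 9.80. Animal 10 lay within the others in Sds (11.74 against 10.88 to 12.56) and Cyp17a1 (9.82 against 8.84 to 10.98), which also rose with the dose.

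**Figure D5:**
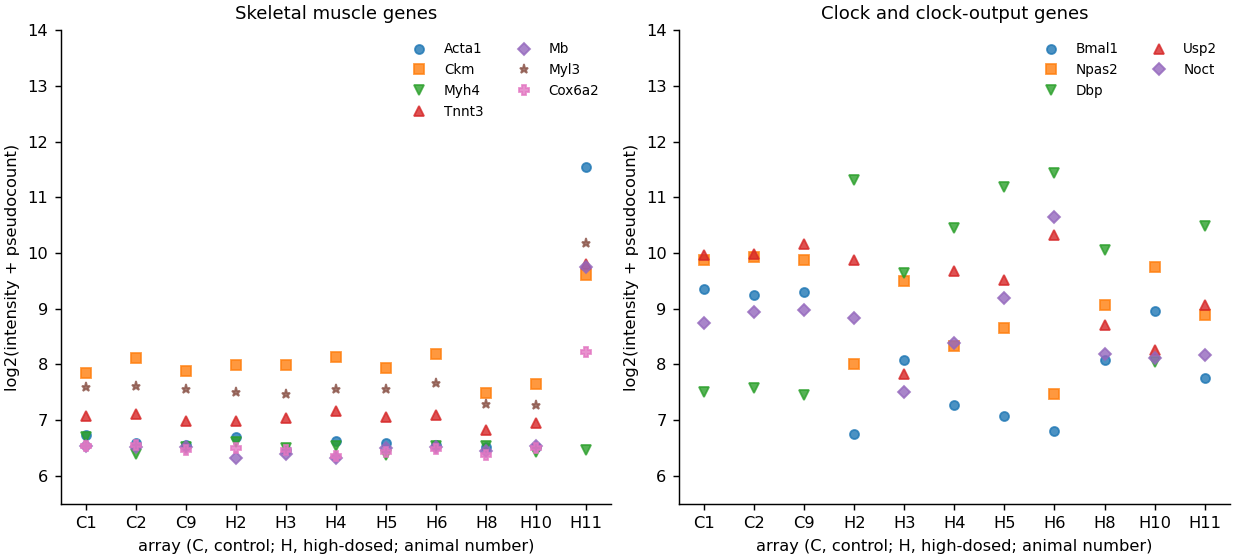
Log2 signal, log2(intensity + 55.26), of 7 skeletal muscle genes (left) and 5 clock and clock-output genes (right) on each array; C marks controls, H high-dosed animals, with the animal number. On the left 6 of the 7 genes are high on H11 alone, with Acta1 at 11.54; on the right H3, H8 and H10 lie nearer to the controls than H2, H5 and H6 for Bmal1 and Dbp.

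Each gene's subgroup means were also set against the control mean. Of the 7 split genes, animals 8, 10 and 11 were nearer to the control mean in 3 (Rgs16, Cdkn1a and Fabp4) and animals 2 to 6 in 4. Of the 2330 genes that were lower without overlap animals 2 to 6 were nearer in 84.4%, and of the 509 higher genes in 79.8%, beside 64.6% of all genes. After quantile normalization these shares were 87.5%, 79.8% and 66.5%. Relative to the control mean, the median of the lower genes was -0.31 in animals 8, 10 and 11 and 0.05 in animals 2 to 6. For the higher genes it was 0.23 and 0.03. Both subgroups were set against the same 3 controls, so these shares are not independent of one another.

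The controls, which took no part in choosing the subgroups, carry animal numbers on either side of the same division. Number 2 occurs in both groups, and the labels do not say that the numbers form a common sequence or mark a batch. Control 9 was lower than the mean of controls 1 and 2 in 76.1% of the 2330 lower genes, beside 58.2% of all genes. It was higher in 52.5% of the 509 higher genes, beside 41.8% of all genes. After quantile normalization the first pair was 68.3% beside 51.5% and the second 59.9% beside 48.5%. The median difference of control 9 was -0.11 over the lower genes and 0.01 over the higher ones. Over all genes of the dimmest decile it was -0.09, and over the brightest -0.01. The shares over all genes given here are not matched for signal. Of the 7 split genes 5 differed in the same direction in control 9, with 1.20 for the gene of placeholder symbol, 0.74 for RT1-N2, 0.40 for Cdkn1a, -0.22 for Xist and 0.09 for Fhl1; Rgs16 (-0.10) and Fabp4 (-1.63) went the other way. With 1 array against 2 no spread can be given for control 9. Animal number, the order of handling and the drug's effect within the high-dosed animals cannot be told apart in these labels.

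In the comparison of all 8 high-dosed animals with the 3 controls, limma called 1141 genes at an adjusted p below 0.05 (10.6% of genes), of which 847 rose and 294 fell with mequindox. After quantile normalization the counts were 590 and 332, and the share of rises went from 74.2% to 64.0%. After median centring 705 rose and 147 fell (82.7% rises). Leaving out control 1 left 325 calls and leaving out control 2 left 759. Of the 509 genes higher in animals 8, 10 and 11 without overlap 56 were among the 1141 (11.0%), close to the share over all genes. Of the 2330 lower genes 38 were among them (1.63%). Both sets of genes were picked by their values on the 8 high-dosed arrays, so neither share is a measure of the dose effect. Why the shares differ was not tested. The subgroup difference and the dose comparison share the high-dosed arrays.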

How the data were processed

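Liver RNA of 11 Wistar rats was hybridised to 11 Affymetrix arrays, 1 per animal, after Trizol extraction and biotin labelling of cRNA per the labels' protocols. The deposited values were intensities of 31099 probe sets on a linear scale from 1 to 34328; MAS5 was named per the submitters' processing notes, with no version or scaling target. Depth does not apply to arrays, and their number limits the precision. Animals named in the titles were taken as separate samples.

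Intensities were transformed as log2(intensity + 55.26). Left out were 57 Affymetrix controls and all sets whose mean log2 signal was below its 40th percentile; 18625 were kept. Gene names came from the platform annotation, checked by Entrez identifier against RefSeq: 20832 probe sets had 1 symbol (20764 matched), 436 several and 9831 none listed. The brightest probe set of 1 symbol stood for each of 10714 genes. Coordinates are not given, since the labels state no genome build.

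Gene signals of the subgroups were compared by difference of means and by overlap only, and 11 array quality measures by exact permutation tests. High-dosed animals and controls were compared with limma 3.58.1 (R 4.3.3) with an intensity trend, two-sided, Benjamini-Hochberg adjusted over all genes; all adjusted p of genes are from this fit. Scripts were tested on simulated data. The members, the 41 gene lists and the rules were chosen with earlier results of these data known. Named were up to 15 split genes on each side, up to 2 members with the largest difference per list (4 where at least 2 were split), 8 rises and 8 falls of the dose comparison and a list of sentinel genes; further genes are said to be chosen after their values were seen, as are the other list members without overlap. Alternatives were quantile normalization, median centring, a pseudocount of 16, other filters, all probe sets, limma without the trend or with the range of animal numbers as a block, and leaving out each array; a filter at the 80th percentile and the alternatives for genes without overlap were chosen after seeing the data.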

Additional observations from a re-analysis of the deposited data

Results flagged for a closer look

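A single array stood far from the others in several of the genes examined. The gap test used is one that chance alone passes in about 1 in 20 groups of arrays, and 70 groups were examined. Many of the genes had been named for their values on these same arrays, so that rate need not hold for them. The flags are a description only. Among all 8 high-dosed arrays, animal 11 was far above the rest in Fhl1 (11.27) and RT1-N2 (10.00), and animal 8 was far below the rest in Xist (6.00). Animal 10 was far below the others in Nr1d2 (10.59) and Hsd17b2 (12.37), in the direction of the controls. Among animals 2 to 6, animal 6 was high in Cyp17a1 (10.92), a steroid hydroxylase, and animal 3 in Srebf1 (11.67), a regulator of lipid synthesis, and in Tubb2a (11.94), a beta-tubulin.

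For 2 split genes every one of animals 8, 10 and 11 lay above the control mean and every one of animals 2 to 6 below it: Fhl1 (difference 1.27) and Rgs16 (1.46). That opposition was not tested, because the subgroups were chosen on these arrays. Some margins were small: Rgs16 was at 11.81 in animal 4 and 11.83 in animal 8, beside a control mean of 11.82. Fhl1 was at 8.31 in animal 6, beside a control mean of 8.32. These values lay within the range of the controls.

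Some skeletal muscle genes had their brightest probe sets under the signal filter and so entered no comparison. On those probe sets animal 11 was above all controls for Acta1 (11.54), Tnnt3 (9.80), Mb (9.76) and Cox6a2 (8.23).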

How the results depend on the processing

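Split genes higher in animals 8, 10 and 11 numbered 6; they numbered 3 with the filter at the 60th percentile and 1 at the 80th, and 3 to 10 when single high-dosed arrays were left out. The 1 lower split gene became 0 after median centring, 2 with a pseudocount of 16, 3 over all probe sets and 1 to 3 without single arrays. Genes without overlap on the higher side numbered 1127 after quantile normalization, 199 with the filter at the 80th percentile and 579 to 848 without single arrays; on the lower side 401 with that filter and 2419 to 2763 without single arrays, counts that fewer arrays raise by construction. Calls of the dose comparison ranged from 325 to 1406 when single arrays were left out. Split genes with control 9 in the same direction numbered 3, not 5, with the filter at the 60th percentile, where fewer genes remain. Measures of array quality with an unadjusted p below 0.05 numbered 5 after median centring and 0 without each single high-dosed array, where the exact test cannot go below 0.05. Alb and Asgr1 changed sign after median centring (0.13 and 0.050). Of the other values of single genes and list medians under the alternatives, 2098 moved by less than the spread between arrays and 109 by more; causes were not tested. No paired analysis was possible because the groups share only number 2. The 3 controls limit every comparison with untreated liver.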
